A study of Mus musculus with 10 samples.

Results

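The receptors for GDNF and FGF and the surface genes used to recognise stem spermatogonia were followed through 13 cell populations of the mouse testis. The set holds 10 genes, listed by name for their role, out of 28125 genes with an RNA value and 30670 genes with a chromatin accessibility value. Gfra1 and Ret encode the 2 chains of the GDNF receptor, Fgfr1, Fgfr2 and Fgfr3 encode FGF receptors, and Tspan8, Itga6, Thy1, Epcam and Uchl1 are genes by which spermatogonia are commonly sorted or stained.

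GDNF is secreted in the testis by somatic cells and binds GFRA1 on the germ cell surface, which then engages the receptor tyrosine kinase RET. FGFs bind receptor tyrosine kinases of the FGFR family, and both routes feed the RAS/MAPK and PI3K/AKT pathways, which keep stem spermatogonia dividing without differentiating. Transcription of feedback inhibitors such as the Sprouty genes and Dusp6, and of factors such as Etv5, is a usual readout of these routes.

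Single-nucleus RNA-seq and ATAC-seq were made together from testes, with 1 library per assay for each of 5 conditions. The youngest were wild-type C57BL/6J mice at 11, 17 and 25 days post-partum (dpp), and the adults, 8 weeks old, were of the genotypes Cre/+ or Nfya-CKO. Nfya-CKO mice are Nfya fl/fl with a Cre cassette knocked into Stra8 that removes internal exons of Nfya, a subunit of the CCAAT-binding factor NF-Y, in germ cells that have activated Stra8, while Cre/+ controls carry the Cre allele without loss of Nfya. Somatic cells of Nfya-CKO testes keep the gene, and germ cells that have not yet expressed Cre keep it too.

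The authors deposited 1 mean profile per population, pooled over all libraries, for 9 germ cell populations (undiff. SpG and diff. SpG for undifferentiated and differentiating spermatogonia, pL for preleptotene, eL/L/Z for early leptotene to zygotene, L/Z/eP for leptotene to early pachytene, mP/lP for middle and late pachytene and D for diplotene cells, RS and ES for round and elongating spermatids), for Sertoli cells, for other somatic cells, for cells of unknown type, and for Nfya-CKO SpG. No population has a replicate, so every difference below is a ratio of 2 pooled means with no test, and genes are described as higher or lower by their size alone. RNA is given as UMIs per 10000, the mean over cells of each cell's UMIs scaled to 10000, and accessibility as signal per 1000000 of a population's total.

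The 5 RNA libraries held 3746 to 18039 cells each, and 45250 cells were listed in all, some of them with no library name. Undiff. SpG comprised 1292 cells with a median of 9290 UMIs, and 92.0% of them were from the juvenile wild-type libraries. Diff. SpG comprised 927 cells, of which 84.5% were from the Cre/+ library, and Nfya-CKO SpG comprised 491 cells with a median of 18361 UMIs. A comparison of Nfya-CKO SpG with undiff. SpG therefore sets 8-week-old mutant cells against mostly juvenile wild-type cells, and genotype, age and library cannot be told apart. The gene-level Nfya RNA was 1.11 UMIs per 10000 in Nfya-CKO SpG and 0.456 in undiff. SpG, so the targeted gene was not lower in cells of the library labelled Nfya-CKO. A count over the whole gene does not show whether the deleted exons are missing.

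Cell barcodes were shared between RNA libraries. Of 5152 cells in the Nfya-CKO library, 3813 had a barcode also present in the Cre/+ library, 74.0% of the former and 31.8% of the latter, while the Nfya-CKO library shared 0 to 10 barcodes with each juvenile library. Among Nfya-CKO SpG, 175 of 491 cells shared a barcode with a Cre/+ cell, with a median of 21471 UMIs in the Nfya-CKO library and 2275 in the Cre/+ library, and 143 of those Cre/+ cells were classed as diff. SpG. Among the Nfya-CKO cells classed as other somatic, 3628 of 4633 shared a barcode with a Cre/+ cell, with a median of 1209 UMIs against 9447 in the Cre/+ library. In undiff. SpG 32.5% of cells and in diff. SpG 49.1% of cells had a barcode found in a further library. The deposited profiles are means over whole populations, so no value could be recomputed without these cells, and their part in the results was not tested.

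Signals of other cell types also differed between the populations compared. The summed RNA of 5 Leydig cell markers was 0.208 UMIs per 10000 in undiff. SpG, 49.3 in Nfya-CKO SpG and 218 in other somatic cells. Insl3 alone, a Leydig cell hormone, was at 39.8 in Nfya-CKO SpG and 0.0640 in undiff. SpG. The sum of 6 Sertoli cell markers was 1.83 in undiff. SpG and 4.53 in Nfya-CKO SpG. Amhr2 among them was at 0.402 and 2.21, with 10.1 in other somatic cells, while Amh alone was lower, at 0.0431 and 0.0116. The sum of 5 endothelial markers was 0.706 and 1.90, with Tek at 0.0591 and 0.921 and Cdh5 alone lower, at 0.0905 and 0.0526. None of the Leydig, Sertoli and endothelial markers was at 0 in Nfya-CKO SpG. Stromal markers (5 genes) summed to 3.35 in undiff. SpG and 2.04 in Nfya-CKO SpG. Of these, Col1a1 alone was lower, at 3.03 and 1.51, while Col1a2, Dcn, Pdgfra and Tcf21 were not lower in Nfya-CKO SpG. Spermatid markers (4 genes) summed to 7.15 in diff. SpG, 0.537 in undiff. SpG and 0.203 in Nfya-CKO SpG, and spermatocyte markers (5 genes) to 14.7, 7.44 and 7.41. Sycp1, the largest of these 5, was at 5.74 in undiff. SpG and 5.80 in Nfya-CKO SpG. Sycp3 was higher in Nfya-CKO SpG, at 1.15 against 0.673. Piwil1 (0.255 against 0.712), Meiob (0.0538 against 0.154) and Spo11 (0.152 against 0.156) were lower, so the near-equal sums do not hold for each gene. The sum of 5 markers of undifferentiated spermatogonia was 17.7 in undiff. SpG, 9.34 in Nfya-CKO SpG and 3.63 in diff. SpG. The largest values were those of Zbtb16, at 8.74 in undiff. SpG and 4.15 in Nfya-CKO SpG, and Sall4, at 4.88 and 2.08. Etv5 alone was higher in Nfya-CKO SpG, at 1.11 against 0.760, and Id4 was highest in mP/lP, at 1.57.

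Promoter sequences are shown because they tell whether the core NF-Y motif occurs near an annotated transcript start. Of 10 genes, 6 had RefSeq promoter entries (GRCm38.p6, 250 bases before to 50 bases after the start), and Ret, Fgfr1, Itga6 and Thy1 had none. CCAAT or its reverse complement ATTGG, searched on both strands, was present in 2 of the 7 entries for these genes and in 37.4% of all 32851 promoters in the table. The 4 sequences shown are those of Gfra1 (chr19:58455349-58455648, minus strand) and Fgfr3 (chr5:33721474-33721773, plus strand), which hold the motif, and of Tspan8 (chr10:115817034-115817333, plus strand) and Epcam (chr17:87635729-87636028, plus strand), which do not and whose accessibility values differed between the spermatogonial populations. Capitals mark the motif, which starts at base 178 in Gfra1 and at base 63 in Fgfr3, counted from the 5′ end. The start used by the Gfra1 entry lies 511 bases and that of the Tspan8 entry 452 bases inside the gene from its GENCODE start, so the Gfra1 motif is not next to the outermost start of the gene. Fgfr3 has a further entry (chr5:33722056-33722355), which does not hold the motif.
Gfra1: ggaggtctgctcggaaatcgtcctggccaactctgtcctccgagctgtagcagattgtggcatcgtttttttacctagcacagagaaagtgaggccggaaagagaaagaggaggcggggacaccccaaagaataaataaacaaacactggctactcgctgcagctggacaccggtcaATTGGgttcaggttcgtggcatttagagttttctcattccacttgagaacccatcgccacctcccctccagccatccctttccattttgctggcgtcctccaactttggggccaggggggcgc
Fgfr3: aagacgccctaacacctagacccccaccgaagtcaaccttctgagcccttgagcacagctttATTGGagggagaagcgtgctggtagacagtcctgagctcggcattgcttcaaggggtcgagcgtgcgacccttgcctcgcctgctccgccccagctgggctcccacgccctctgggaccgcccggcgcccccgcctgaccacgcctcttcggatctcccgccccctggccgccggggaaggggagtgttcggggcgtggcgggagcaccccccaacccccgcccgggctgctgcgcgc
Tspan8: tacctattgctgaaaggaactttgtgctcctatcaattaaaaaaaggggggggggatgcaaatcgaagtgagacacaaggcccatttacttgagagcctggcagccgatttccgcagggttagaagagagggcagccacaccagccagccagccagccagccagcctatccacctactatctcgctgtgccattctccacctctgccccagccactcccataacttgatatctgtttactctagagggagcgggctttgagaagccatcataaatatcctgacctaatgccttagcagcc
Epcam: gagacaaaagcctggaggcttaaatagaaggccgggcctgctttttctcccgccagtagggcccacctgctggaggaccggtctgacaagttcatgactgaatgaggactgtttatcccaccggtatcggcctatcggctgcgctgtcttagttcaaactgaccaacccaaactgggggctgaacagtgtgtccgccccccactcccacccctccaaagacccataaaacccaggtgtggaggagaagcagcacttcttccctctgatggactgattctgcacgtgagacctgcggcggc
A match describes these letters only, and binding at these starts was not measured in the files used here.

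RNA of both GDNF receptor chains was highest in undiff. SpG and Nfya-CKO SpG. Of the 10 genes, 7 had their highest control germ cell RNA in undiff. SpG, and 5 of the 8 whose mean over the 9 germ cell populations reached 0.05, against 18.7% of all genes that reached it. For 6 the 2 highest of all 13 populations were undiff. SpG and Nfya-CKO SpG, and for 5 of the 9 whose mean over the 13 reached 0.05, against 7.56% of such genes. Tspan8, among these 5, reached it (at 0.0512) only through the 2 populations in which it was highest. Gfra1, Ret, Fgfr1, Tspan8, Itga6, Thy1 and Uchl1 formed the 7, whereas Fgfr2 and Fgfr3 were highest in pL and Epcam in diff. SpG.

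**Figure D1:**
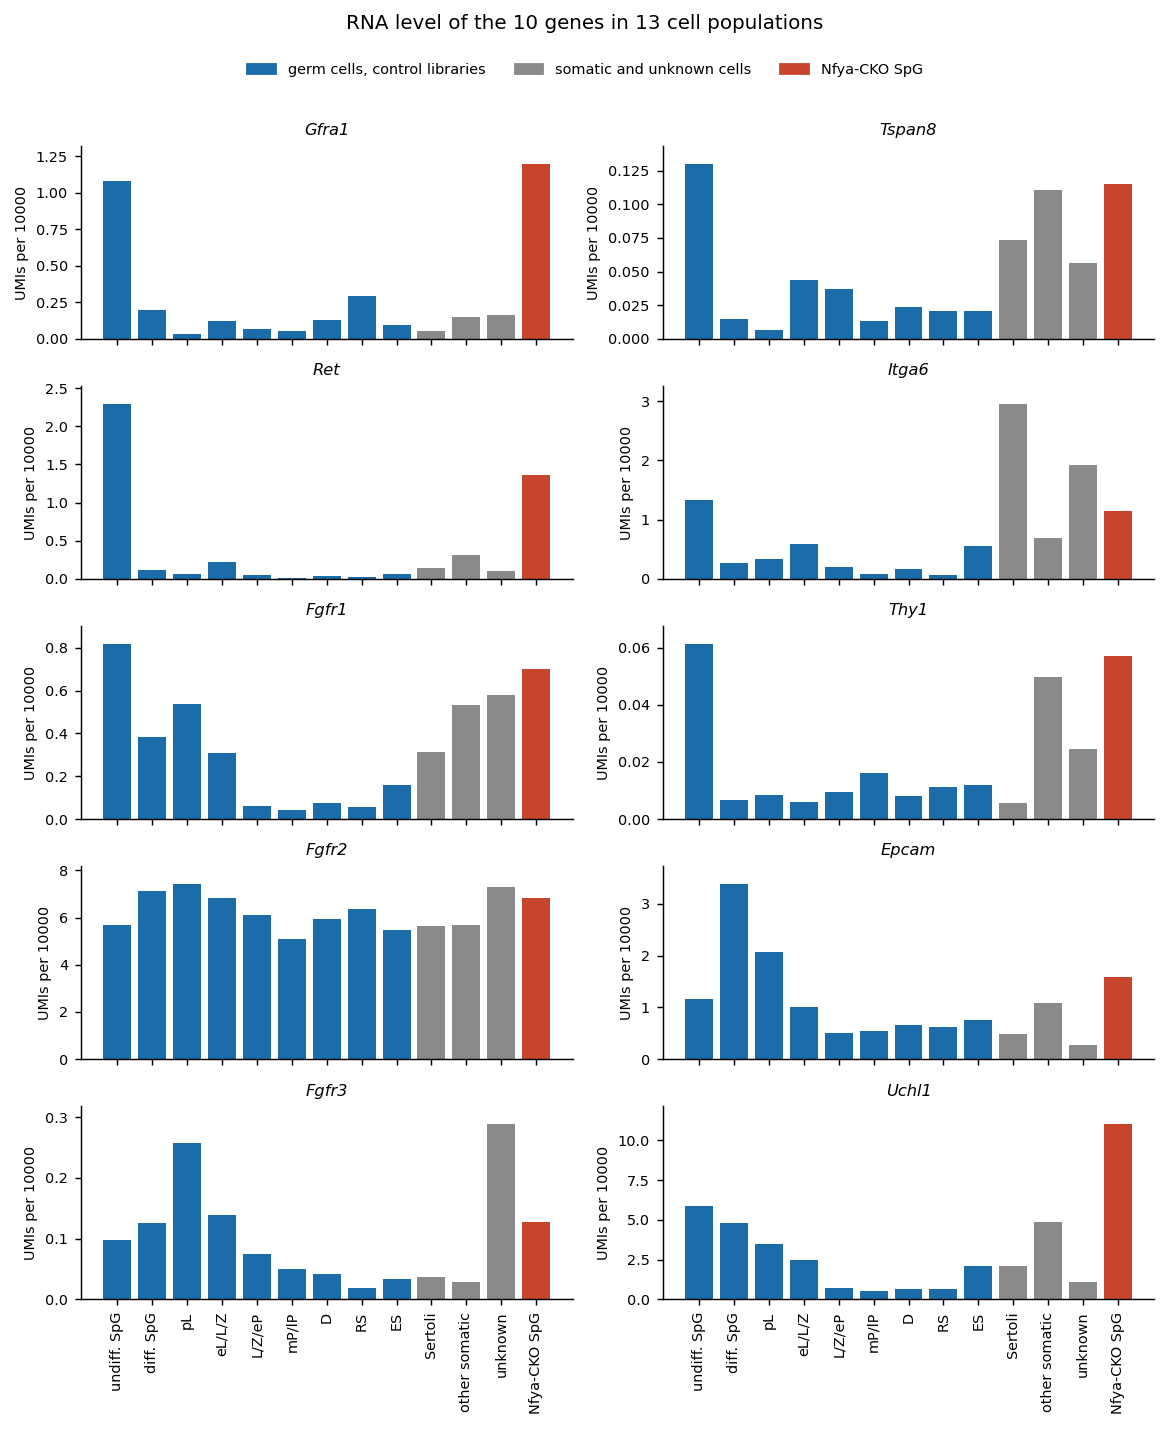
RNA level of each gene (y axis, UMIs per 10000, a separate linear scale per gene) in 13 cell populations (x axis); each bar is 1 pooled mean, so there is no error bar. Gfra1 and Ret stand out in undiff. SpG and Nfya-CKO SpG, Fgfr2 is nearly level, Itga6 peaks in Sertoli cells and Epcam in diff. SpG.

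Gfra1, which encodes the ligand-binding chain of the GDNF receptor, lies at chr19:58235581-58455946 (RefSeq, GRCm38, minus strand). Its RNA was 1.08 UMIs per 10000 in undiff. SpG, 0.198 in diff. SpG, 0.0356 in pL, 0.125 in eL/L/Z, 0.0666 in L/Z/eP, 0.0573 in mP/lP, 0.126 in D, 0.297 in RS and 0.0964 in ES. Sertoli cells were at 0.0551, other somatic cells at 0.147, unknown cells at 0.163 and Nfya-CKO SpG at 1.199. Undiff. SpG thus stood 3.64 times above the next control germ cell population, the round spermatids, and 19.6 times above Sertoli cells.

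Ret, the tyrosine kinase chain that GFRA1 recruits, lies at chr6:118151748-118197744 (minus strand). Its RNA was 2.30 in undiff. SpG, 0.119 in diff. SpG, 0.0607 in pL, 0.227 in eL/L/Z and between 0.0152 and 0.0696 in the later germ cells. It was 0.138 in Sertoli cells, 0.312 in other somatic cells, 0.108 in unknown cells and 1.36 in Nfya-CKO SpG. This was the widest range of the 10 genes, 151-fold from mP/lP to undiff. SpG, and undiff. SpG stood 10.1 times above the next control germ cell population.

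Fgfr1 lies at chr8:25518759-25575718 (plus strand), and its RNA declined in a different way from that of the GDNF receptor. It was 0.819 in undiff. SpG, 0.382 in diff. SpG, 0.537 in pL and 0.308 in eL/L/Z, and then 0.0431 to 0.161 from L/Z/eP to ES. Sertoli cells were at 0.314, other somatic cells at 0.535, unknown cells at 0.581 and Nfya-CKO SpG at 0.702. The step from undiff. SpG to the next control germ cell population, pL, was 1.53-fold.

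Fgfr3 (chr5:33721724-33737068, plus strand) had low RNA with its germ cell maximum later, at 0.258 in pL. It was 0.0976 in undiff. SpG, 0.125 in diff. SpG, 0.139 in eL/L/Z, 0.0748 in L/Z/eP and 0.0186 to 0.0493 in the remaining germ cells. Unknown cells were at 0.289, where 1 UMI in a median cell amounts to 0.0213 because only 99 cells were pooled. Nfya-CKO SpG was at 0.128, close to diff. SpG.

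The row named Fgfr2 was nearly level over all 13 populations. Its RNA ran from 5.10 in mP/lP to 7.43 in pL, a range of 1.46-fold, and undiff. SpG was at 5.70, Sertoli cells at 5.63 and Nfya-CKO SpG at 6.81. Only 3 of 2739 genes with a mean of at least 1 UMI per 10000 had a range this small (0.11%, Fgfr2 included), and the median range of those genes was 4.80-fold.

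The span annotated for Fgfr2 bears on this value. RefSeq places the gene at chr7:130162451-130266808 (minus strand), 104358 bases, whereas GENCODE vM21 extends it to chr7:130162451-133123350, 2.96 Mb, which takes in 69 other genes, 42 of which have an RNA row. Of the 28125 row names, 27457 are GENCODE vM21 names, but the annotation used for counting and whether strand was used are not given in the sources used here. The summed RNA of the 20 same-strand genes with a row was 4.32 in undiff. SpG, 5.49 in diff. SpG, 5.87 in pL and 4.55 in Nfya-CKO SpG. The Fgfr2 row was above this sum in 13 of 13 populations, by 1.08 to 2.60, and across the 13 populations the 2 had a Pearson r of 0.84, against 0.56 for the sum of 22 opposite-strand genes. The Fgfr2 values are therefore given as those of the row and not as levels of the receptor.

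**Figure D2:**
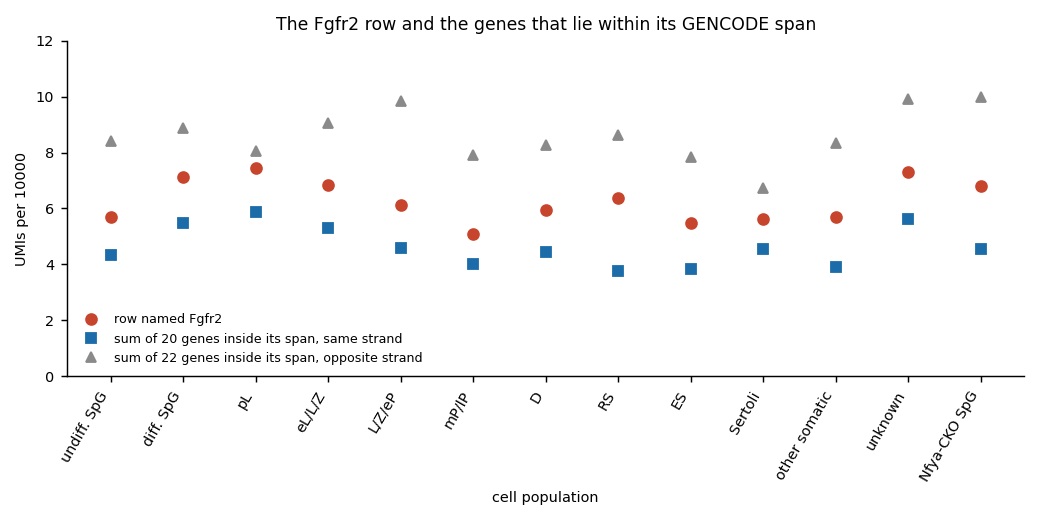
RNA (y axis, UMIs per 10000) of the row named Fgfr2, of the 20 same-strand genes summed and of the 22 opposite-strand genes summed inside its GENCODE span, in 13 populations (x axis). The Fgfr2 points lie above the same-strand sum in every population shown.

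The surface genes did not share 1 pattern. Itga6, the laminin-binding integrin α6 chain (chr2:71786886-71858427, plus strand), was at 1.33 in undiff. SpG, 0.265 in diff. SpG, 0.332 in pL, 0.592 in eL/L/Z and 0.0680 to 0.558 in later germ cells. It reached 2.96 in Sertoli cells and 1.92 in unknown cells and was 1.15 in Nfya-CKO SpG. Sertoli cells, not germ cells, therefore carried the highest Itga6 RNA, with undiff. SpG at 0.448 of their level.

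Tspan8, a tetraspanin (chr10:115816817-115849893, plus strand), was at 0.130 in undiff. SpG, 0.0147 in diff. SpG, 0.00665 in pL and 0.0437 in eL/L/Z. Sertoli cells were at 0.0732, other somatic cells at 0.110 and Nfya-CKO SpG at 0.115. Undiff. SpG stood 2.98 times above the next control germ cell population but only 1.78 times above Sertoli cells, and the diff. SpG value corresponds to about 8.46 UMIs of a median cell.

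Thy1, a GPI-anchored surface protein (chr9:44043384-44048579, plus strand), was at 0.0614 in undiff. SpG and 0.0572 in Nfya-CKO SpG. All other germ cell populations were between 0.00614 and 0.0162, Sertoli cells were at 0.00576 and other somatic cells at 0.0497. The undiff. SpG value corresponds to about 73.6 UMIs of a median cell over all 1292 cells, and the diff. SpG value to about 3.87 UMIs.

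Epcam, an epithelial adhesion molecule (chr17:87635979-87651127, plus strand), was highest in diff. SpG. It was at 1.16 in undiff. SpG, 3.39 in diff. SpG, 2.07 in pL, 1.01 in eL/L/Z and 0.514 to 0.751 in later germ cells. Nfya-CKO SpG was at 1.58, other somatic cells at 1.09 and Sertoli cells at 0.488.

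Uchl1, a deubiquitinating enzyme abundant in spermatogonia (chr5:66676121-66687234, plus strand), was at 5.88 in undiff. SpG, 4.79 in diff. SpG, 3.46 in pL and 2.46 in eL/L/Z. It was 0.487 to 2.11 in later germ cells, 2.12 in Sertoli cells, 4.87 in other somatic cells and 11.0 in Nfya-CKO SpG. The step between undiff. and diff. SpG was 1.23-fold, the smallest of the 7 genes that were highest in undiff. SpG. The antisense gene Uchl1os overlaps Uchl1, as Gm16277 does Gfra1 and Gm16159 does Fgfr1, and reads of such pairs cannot be told apart where strand is not used.

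The genes differed in how their RNA compared between diff. and undiff. SpG. Between diff. and undiff. SpG, 9 of the 10 genes had enough RNA to be compared (a mean of at least 0.05), 4 were at least 2-fold lower in diff. SpG, where 7.05% of 14264 genes were lower, and 1 was at least 2-fold higher, where 10.2% were higher. On the log2 scale with 0.1 added to each value, the ratio was -1.99 for Gfra1, -3.45 for Ret, -1.97 for Itga6 and -1.004 for Tspan8. Epcam had a ratio of 1.47. Fgfr1, at -0.93, fell just short of the 2-fold limit and Tspan8 just past it, and Thy1, at 0.00674 against 0.0614, was too low to be compared. Tspan8 had enough RNA only through its undiff. SpG value, and with a minimum mean of 0.2 the genes lower numbered 3. With a pseudocount of 1, Ret, at -1.56, was the 1 gene still 2-fold lower, with Gfra1 at -0.80, Itga6 at -0.88 and Tspan8 at -0.16. The spermatid marker sum of 7.15 in diff. SpG, against 0.537 in undiff. SpG, stands beside these values, and its part in them was not tested. Of the 927 diff. SpG cells 15.3% were juvenile, against 92.0% of undiff. SpG, so stage and age cannot be told apart here.

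Against Sertoli cells, a somatic source of GDNF, undiff. SpG had at least 2-fold higher RNA for 5 of 9 genes compared, where 20.2% of genes were higher, and at least 2-fold lower RNA for 1, where 12.1% were lower. Gfra1, Ret, Fgfr1, Epcam and Uchl1 were the 5, and Itga6 was the 1. The ligand gene Gdnf showed the opposite distribution, at 0.221 UMIs per 10000 in Sertoli cells and 0.0177 in undiff. SpG.

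The log2 RNA ratios of Nfya-CKO SpG to undiff. SpG ran from -0.72 for Ret to 0.90 for Uchl1. None of the 10 passed the 2-fold limit in either direction, where 3.4% of 13954 genes were lower and 4.76% were higher, a count close to those shares and so no result about the set. The median log2 ratio was 0.05 over the 10 genes, -0.04 without Fgfr2 and 0.04 over all genes compared. The 2 GDNF receptor chains differed in sign. Gfra1 was at 1.199 against 1.079, a log2 ratio of 0.14, and Ret at 1.36 against 2.30, a log2 ratio of -0.72, which was the lowest of the 10 and at the 7.74th percentile of all genes compared.

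Among the FGF receptors the log2 ratio of Nfya-CKO SpG to undiff. SpG was -0.20 for Fgfr1, 0.25 for the Fgfr2 row and 0.21 for Fgfr3. For the surface genes it was -0.10 for Tspan8, -0.20 for Itga6, -0.04 for Thy1, 0.42 for Epcam and 0.90 for Uchl1. Uchl1 was thus the highest of the 10, at the 93.7th percentile of all genes compared. When 22.6% of the other somatic profile, the ratio of the Leydig marker sums, was taken off the Nfya-CKO SpG values, the Uchl1 ratio became 1.11 and passed the limit, and the other 9 genes stayed within it, Gfra1 at 0.45 and Ret at -0.44. That alternative was added after the values had been seen.

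Set against diff. SpG, Nfya-CKO SpG had at least 2-fold higher RNA for Gfra1, Ret, Itga6 and Uchl1, 4 of 9 genes compared, where 7.44% of genes were higher. Epcam was at least 2-fold lower, where 10.9% were lower. The log2 ratios were 2.13 for Gfra1, 2.74 for Ret, 1.77 for Itga6, 1.19 for Uchl1 and -1.05 for Epcam. The spermatid marker sum was 7.15 in diff. SpG and 0.203 in Nfya-CKO SpG, and its part in these ratios was not tested. Both comparisons use the same Nfya-CKO SpG profile and are not independent.

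**Figure D3:**
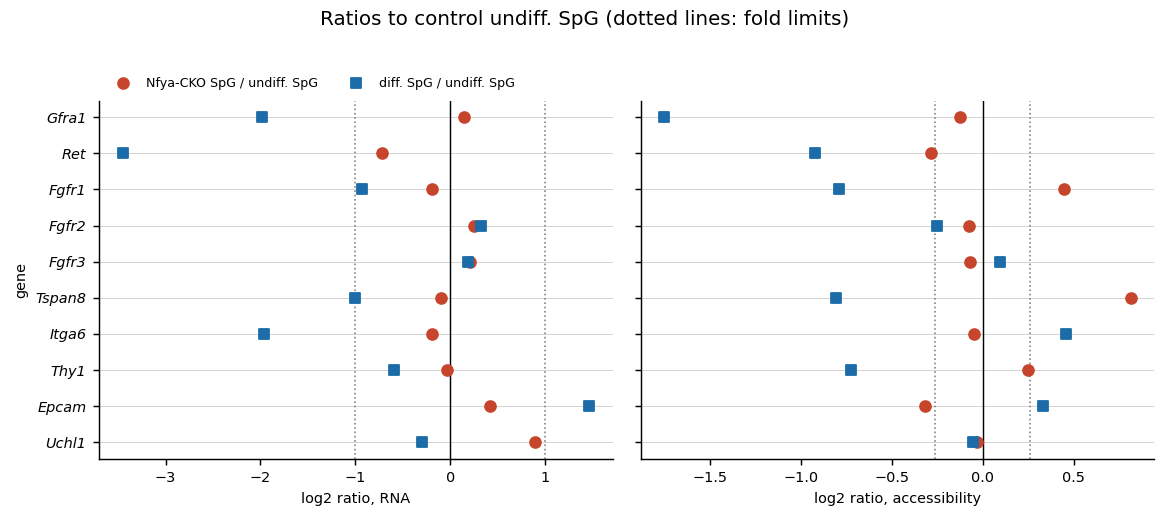
Log2 ratios to undiff. SpG (x axis) of RNA (left) and accessibility (right) for each gene (y axis), with circles for Nfya-CKO SpG and squares for diff. SpG; dotted lines mark 2-fold for RNA and 1.2-fold for accessibility, and each symbol is 1 ratio of pooled means. All RNA circles lie between -0.72 and 0.90, while the squares of Ret, Gfra1 and Itga6 lie well to the left.

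Beyond the receptors themselves, 84 genes of the same pathways and of the spermatogonial surface were examined by role. RNA rows existed for 83 of them and 68 had enough RNA to compare Nfya-CKO SpG with undiff. SpG, of which 8 were at least 2-fold lower and 3 at least 2-fold higher, where 3.4% of all genes were lower and 4.76% higher. With a pseudocount of 1 the counts were 2 lower and 1 higher, and with 0.01 they were 12 and 8. The shares of all genes were computed with 0.1 only, so these other counts have no share to be read against. The list was written with earlier results of these data known. The 8 were Akt2, Ccnd2, Dusp6, Egr4, Id4, Shc1, Src and Tspan33, and the 3 were Chl1, Plaur and Vcam1. Those still past the limit with a pseudocount of 1 were Ccnd2 (-1.06), Egr4 (-1.07) and Chl1 (2.20), while Id4, at -1.001 with 0.1 added, was just past it and came to -0.38. Ccnd2 came within the limit when the Leydig share was taken off as above.

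Of the other GDNF family and co-receptor genes 4 of 8 could be compared, and of the FGF ligands and other receptors 3 of 11, and 0 of either list passed the limit. The ligand gene Gdnf was at 0.0304 in Nfya-CKO SpG and 0.0177 in undiff. SpG, and Fgf2, which encodes basic FGF, at 0.0162 and 0.0152, both too low to be compared. Of 24 signal carriers compared, 3 were at least 2-fold lower, where 3.4% of all genes were lower, and none was higher. Akt2, a kinase of the PI3K pathway, was at 0.786 against 2.06, Src, a kinase activated by RET, at 0.368 against 0.999, and Shc1, an adaptor of receptor tyrosine kinases, at 0.409 against 0.938. With a pseudocount of 1 their log2 ratios were -0.77, -0.55 and -0.46, within the limit.

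Of 7 feedback inhibitors compared, 1 was at least 2-fold lower, where 3.4% of all genes were lower, and none was higher. The median log2 ratio was -0.64 over the 7, beside 0.04 over all genes. The gene past the limit was Dusp6, an ERK phosphatase, at 0.383 in Nfya-CKO SpG against 1.01 in undiff. SpG, with 2.96 in Sertoli cells, and its log2 ratio was -0.54 with a pseudocount of 1, within the limit. Spry4, a Sprouty inhibitor, was at 0.350 against 0.491, within the limit.

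Of 14 genes known to respond to GDNF or FGF that could be compared, 3 were at least 2-fold lower, where 3.4% of all genes were lower, and none was higher. Their median log2 ratio was -0.61, and 5 had ratios above 1. Egr4, an early growth response factor, was at 1.45 against 4.16, Ccnd2, cyclin D2, at 4.67 against 10.8, and Id4, a helix-loop-helix inhibitor marking stem spermatogonia, at 0.290 against 0.682. With the Leydig share taken off, Ccnd2 came within the limit. Etv5, a GDNF-induced factor required for stem cell maintenance, was at 1.11 against 0.760, and other somatic cells were at 1.03.

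Of 16 other surface genes compared, 3 were at least 2-fold higher and 1 lower, where 4.76% and 3.4% of all genes were, and 12 lay within the limit. Vcam1, among the 3, had enough RNA to be compared only through its Nfya-CKO SpG value. Their median log2 ratio was 0.77, beside 0.04 over all genes. Vcam1, an adhesion molecule, was at 0.463 in Nfya-CKO SpG against 0.00717 in undiff. SpG, with 2.33 in other somatic cells. The Leydig share taken off above exceeds its whole Nfya-CKO SpG value, so with that step Vcam1 was no longer higher. Chl1, a neural adhesion molecule, was at 5.24 against 0.357, with 7.27 in other somatic cells and 13.8 in ES. Plaur, the urokinase receptor, was at 0.304 against 0.0626, with 0.0660 in other somatic cells, so that of these 3 it alone was higher in Nfya-CKO SpG than in any other population. With a pseudocount of 1 the log2 ratio was 0.54 for Vcam1 and 0.29 for Plaur, within the limit.

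Tspan33, a tetraspanin, was at 0.233 against 0.684, a log2 ratio of -1.24, or -0.45 with a pseudocount of 1. Kit, the receptor that marks differentiating spermatogonia, was at 1.08 in Nfya-CKO SpG, between 0.548 in undiff. SpG and 1.56 in diff. SpG. It did not pass the limit as given, but did so with the Leydig share taken off. The Leydig marker sum of 49.3 in Nfya-CKO SpG stands beside all these values. With the Leydig share taken off as above, 8 of the pathway and surface genes were lower and 4 higher, against 8 and 3 without that step. These were not all the same genes, since Ccnd2 and Vcam1 no longer passed the limit while Kit did. Cxcr4 (0.0440 in Nfya-CKO SpG against 0.138 in undiff. SpG before the step) also came to pass it as lower. Cdh1 (0.292 against 0.102) came to pass it as higher. The shares of all genes were not computed for that step.

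**Figure D4:**
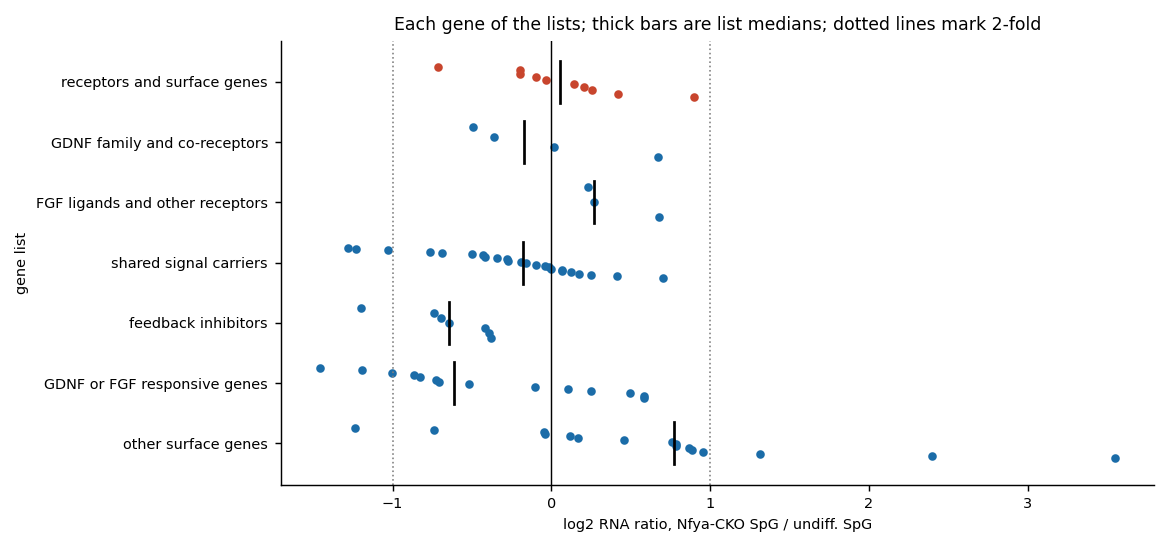
Log2 RNA ratio of Nfya-CKO SpG to undiff. SpG (x axis) for each gene compared, by gene list (y axis); points are genes, thick bars are list medians and dotted lines mark 2-fold. The feedback inhibitors have a median of -0.64 with 1 of 7 past the limit, and the points furthest right are Chl1 and Vcam1.

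Accessibility near the annotated start of each gene was compared in the same 13 populations. The study's methods take the accessibility of a promoter as mean coverage within 200 bases on either side of the start, but do not say whether the deposited matrix was made in that way. Neighbouring genes whose GENCODE starts lay less than 200 bases apart had a median Pearson r of 0.9999 over the 13 populations (1094 pairs), those 1000 to 2000 bases apart 0.98 (397 pairs) and those 2000 to 3000 bases apart 0.78 (221 pairs).

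The Fgfr2 accessibility values followed another gene. The GENCODE start of Fgfr2 lies 2.86 Mb from its RefSeq start and 1004 bases from that of Ctbp2, a transcriptional co-repressor gene, and the accessibility of the 2 rows had an r of 0.998 over 13 populations, with the Fgfr2 value 1.07 to 1.21 times that of Ctbp2. The Itga6 start lies 41.3 kb and the Fgfr1 start 5.11 kb from their RefSeq starts, whereas the other 7 genes have starts 0 to 50 bases apart in the 2 annotations. The Itga6 row held little signal, 0.539 to 3.81 per 1000000.

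For Gfra1 and Ret, accessibility and RNA were highest in the same populations. Gfra1 accessibility was 39.7 per 1000000 in undiff. SpG, 11.1 in diff. SpG, 22.6 in pL, 14.4 in eL/L/Z and 5.07 to 8.26 in later germ cells, and 12.7 in Sertoli cells. Ret accessibility was 38.7 in undiff. SpG, 19.9 in diff. SpG, 20.6 in pL, 12.6 in eL/L/Z and 4.71 to 7.63 in later germ cells. Gfra1 thus had more signal in pL than in diff. SpG, although its RNA was lower in pL. The Ret values in pL and diff. SpG were close, at 20.6 and 19.9, on totals that include mitochondrial signal. Mitochondrial genes took 31.25% of the signal in pL and 34.96% in diff. SpG, so no order is given for Ret. Of the cells with accessibility data, 99.65% in pL and 16.97% in diff. SpG were juvenile, so stage and age cannot be told apart.

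Of the 10 genes, 5 had their highest control germ cell accessibility in undiff. SpG, against 17% of nuclear genes with signal. One of the 5 is the Fgfr2 row, which follows Ctbp2 and was at 52.2 in undiff. SpG and 52.0 in pL, and the count was 4 where the next population had to be exceeded 1.2 times. Of the 10 genes, 6 had the same top germ cell population by RNA and by accessibility, and 5 of the 8 with enough germ cell RNA, against 27.8% of such genes. Uchl1, highest in pL by accessibility, was at 55.3 there and 52.2 in undiff. SpG, so its top population was a close one. Between diff. and undiff. SpG, 5 genes were at least 1.2-fold lower (Gfra1, Ret, Fgfr1, Tspan8 and Thy1), where 27% of genes were lower, and 2 were higher (Itga6 and Epcam), where 38.4% were higher. The Itga6 values were low, at 1.87 against 1.09. Thy1 accessibility was 12.4 in diff. SpG against 21.2 in undiff. SpG, and that of Fgfr1 was 7.95 against 14.5. Epcam, which was higher in diff. SpG by RNA, was at 34.1 against 26.8.

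**Figure D5:**
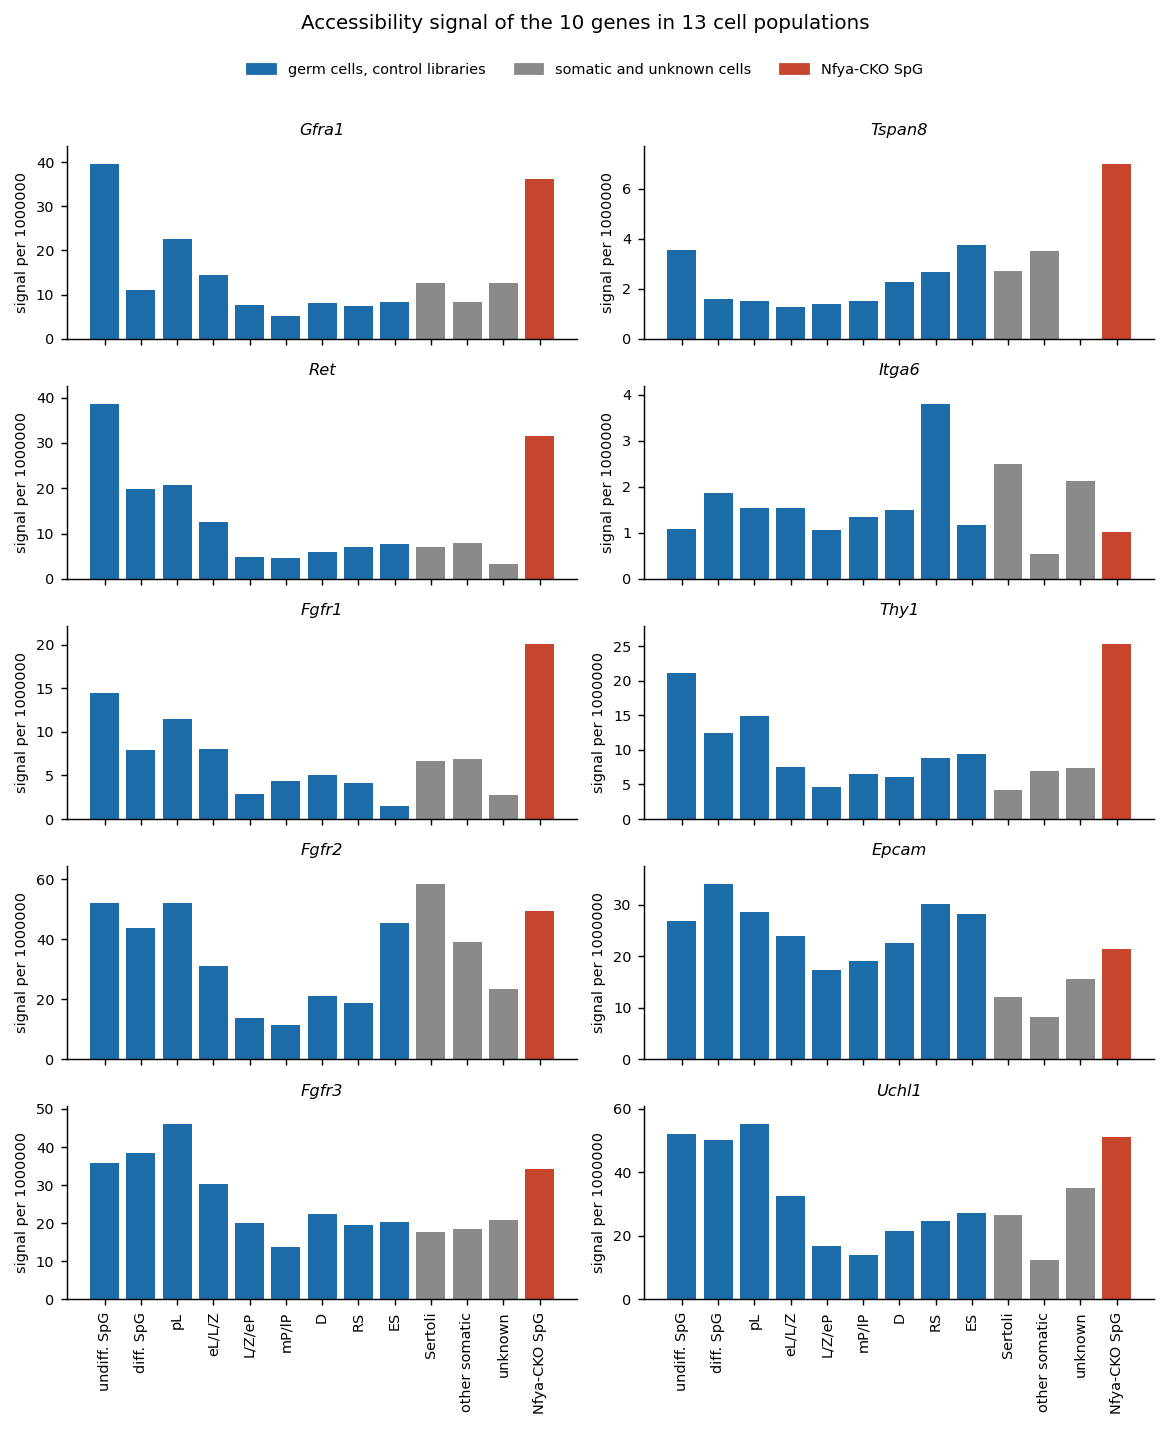
Accessibility signal of each gene (y axis, signal per 1000000, a separate linear scale per gene) in 13 cell populations (x axis); each bar is 1 pooled value without error. Gfra1 and Ret are highest in undiff. SpG and Nfya-CKO SpG, Uchl1 and Fgfr3 in pL, and the Fgfr2 row, which follows Ctbp2, in Sertoli cells. Uchl1 is only 1.06 times as high in pL as in undiff. SpG, and the totals include mitochondrial signal.

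In Nfya-CKO SpG, 2 genes were at least 1.2-fold less accessible than in undiff. SpG, where 26.6% of genes were lower, and 2 were more accessible, where 26% were higher. Ret was at 31.6 against 38.7 and Epcam at 21.4 against 26.8. Fgfr1 was at 20.1 against 14.5 and Tspan8 at 7.003 against 3.545. Ret was therefore the 1 gene of the 10 with a ratio below 1 for both RNA and accessibility among those past the accessibility limit, and Epcam accessibility was lower while its RNA was not.

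The remaining 6 genes lay within the limit. Gfra1 was at 36.2 against 39.7, Fgfr3 at 34.2 against 35.9, Uchl1 at 51.0 against 52.2 and Thy1 at 25.3 against 21.2. The Fgfr2 row was at 49.5 against 52.2 and Itga6 at 1.02 against 1.09. Mitochondrial genes took 46.0% of the Nfya-CKO SpG signal and 40.6% of that of undiff. SpG, and when values were scaled without them 0 genes were lower, with Ret at a log2 ratio of -0.15 and Epcam at -0.19, and 3 were higher, Thy1 passing the limit at 0.39. The median enrichment of fragments at transcription starts was 7.82 in Nfya-CKO SpG and 12.47 in undiff. SpG, and its part in these ratios was not tested.

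The genes most like each of the 10 across populations were named by Pearson r of log2 RNA over the 13 populations, among 10386 genes whose mean RNA reached 0.2 UMIs per 10000. Gfra1 was closest to Tmem132c (r = 0.98) and Glis3 (0.96), and Ret to Dennd2a (0.97) and Ccdc141 (0.96). Fgfr1 was closest to Slc12a7 (0.98) and Zbtb33 (0.97), Fgfr3 to Nkd1 (0.96) and Jag2 (0.94), and the Fgfr2 row to Alg13 (0.90) and Ebf3 (0.89). Of the surface genes, Tspan8 was closest to Amot (0.93) and Tmem164 (0.92), Itga6 to Ddx3x (0.97) and Tpd52 (0.96), Thy1 to Plxnb1 (0.95) and Lamb1 (0.88), Epcam to Nup210 (0.93) and Mrpl49 (0.92), and Uchl1 to Ldb1 (0.98) and Pmm1 (0.97). Of these 20 pairs 4 were also found by rank correlation and 7 without the unknown cells, and the points of every pair share their libraries.

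Among the 10 genes, Ret correlated with Tspan8 at r = 0.86, with Gfra1 at 0.85 and with Thy1 at 0.85, and Fgfr1 with Uchl1 at 0.85. Epcam and Itga6 had an r of -0.12, with maxima in diff. SpG and in Sertoli cells.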

How the data were processed

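The 10 genes, the gene lists, markers, limits and alternatives were chosen with earlier results of these data known. Reads were aligned with STAR 2.7.10b (RNA) and BWA 0.7.12 (ATAC) to mm10, processed with bedtools 2.27.1 and analysed with Seurat 5.2.1 and ArchR 1.0.3, per the labels and the study's methods, which also state limits of 500 genes per cell, 5% mitochondrial UMIs, 1000 fragments and an enrichment of 4 at transcription starts, and removal of doublets by DoubletFinder and ArchR. The deposited matrices hold the natural log of 1 plus a population mean, one pooled value per gene and population, made by the authors from counts scaled to 10000 per cell. UMI counts per cell and fragment counts per cell were deposited with the population names, and the score of enrichment at transcription starts is the authors' ArchR value. Columns not used numbered 23.

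Values were converted by exp(value) - 1. RNA sums to 10000 per population, and accessibility was rescaled to 1000000. Ratios were log2((a + 0.1)/(b + 0.1)) for RNA, where the 2 populations averaged 0.05 or more, with a limit of 2-fold, and log2((a + 1)/(b + 1)) for accessibility, for nuclear genes with signal in both and a limit of 1.2-fold. The genes named are the 10, Nfya, Gdnf, Fgf2, Etv5, Kit, Spry4, Dusp6 and all listed pathway genes past the limit in Nfya-CKO SpG. Also named are the 2 genes most like each of the 10, Ctbp2, overlapping antisense genes, Cxcr4, Cdh1 and single cell type markers. Each condition had 1 library per assay, so no test was run. Gene spans came from RefSeq (GRCm38) and GENCODE vM21, with Python 3.11.15 and pandas 2.3.3. Library depth was 30227701 to 64967271 UMIs.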

Additional observations from a re-analysis of the deposited data

How the results depend on the processing

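No paired analysis was possible because every library is replicate 1 of its group and the deposited profiles are pooled over libraries, which also leaves no replicate to leave out. The counts below give genes lower and higher in Nfya-CKO SpG than in undiff. SpG unless another pair is named. For RNA of the 10 genes (0 lower, 0 higher), a 1.5-fold limit gave 1 and 1, diff. SpG as reference 1 and 4, pL as reference 5 higher, and removal of the Leydig share, an alternative chosen after seeing the data, 1 higher. Pseudocounts of 0.01 and 1, centring on the median ratio, both filters, a 3-fold limit and leaving out Fgfr2 kept 0 and 0. For the 84 pathway and surface genes (8 and 3), a pseudocount of 0.01 gave 12 and 8, a pseudocount of 1 gave 2 and 1, a 1.5-fold limit 18 and 12, a 3-fold limit 0 lower, and diff. SpG or pL as reference 3 and 18 each. Between diff. and undiff. SpG (4 and 1), a pseudocount of 1 left 1 lower, Ret, and a 3-fold limit left 0 higher. With diff. SpG as reference, 10.9% of all genes were lower and 7.44% higher. For the other alternative settings of RNA the shares over all genes were not computed. Counts under those settings show how the calls move and are no result about the genes.

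For accessibility (2 and 2), a pseudocount of 5 left 1 lower, scaling without mitochondrial genes gave 0 and 3, centring 1 and 3 (Thy1 at 0.39 and 0.28), a 1.5-fold limit 0 lower and 1 higher, and diff. SpG as reference gave 5 higher, with the Ret log2 ratio turning to 0.64. Scaling without mitochondrial genes moved the median log2 ratio of all genes by 0.12 and the shares of genes lower and higher from 26.6% and 26% to 17.7% and 35.8%. For the other alternative settings of accessibility the shares over all genes were not computed, so their counts are no result about the genes. Genes with their highest RNA in Sertoli, other somatic or unknown cells numbered 2, Itga6 and Fgfr3. The count was 1 without unknown cells and 1 where the next population had to be exceeded 1.2 times. Of the 20 likeness pairs 4 and 7 were kept by rank correlation and without unknown cells. Of 136 ratios of single genes under settings that keep the reference, 121 moved by less than 1.5-fold and stayed on their side of the limit. Both numbers include the settings that leave out Fgfr2 or Itga6, which cannot move the ratio of another gene. The cause of these changes was not tested. Pooled profiles limit all results, since no spread between animals can be given.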
